A study of Homo sapiens with 6 samples.

Results

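Replication-dependent histone genes encode the bulk histones that package newly copied DNA. They were taken as the RefSeq protein-coding genes of GRCh38 whose symbol is H1-1 to H1-6 or begins with H2AC, H2BC, H3C or H4C and a digit. The rule found 70 of 20033 protein-coding genes on the nuclear chromosomes, namely 6 H1, 17 H2A, 19 H2B, 13 H3 and 15 H4 genes. RIP-seq (RNA immunoprecipitation and sequencing) had been done for SmD2, the product of SNRPD2, in HEK293T, an established human embryonic kidney line. The labels gave 3 samples of genotype SNRPD2OE and 3 of genotype Ctrl, and 1 peak list was analysed for each SNRPD2OE sample. No Ctrl list was analysed here, and no comparison with Ctrl is made. The labels do not spell out OE, usually short for overexpression, and the design text speaks of knockouts of PUS7 and SNRPD2. Neither the construct and its promoter nor any clone is named in the labels. They also do not say whether replicates were separate cultures, so the spread between them may be technical.

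Messenger RNAs of these genes are made in S phase and, unlike other mRNAs, end in a conserved stem-loop in place of a poly(A) tail. That end is cut by a machinery that contains the U7 small nuclear RNP, and most of the genes have no introns. SmD2 is a subunit of the Sm ring of the spliceosomal small nuclear RNAs. In the ring of U7, LSM10 and LSM11 take the places of SmD1 and SmD2, so histone mRNAs are processed by an RNP without SmD2. The series asked how SmD2, pseudouridine and splicing are related.

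The genes lay in few places. A stretch of chromosome 6 held 55 of them, chromosome 1 held 11 in a first group and 2 in a second, and chromosomes 12 and 21 held 1 each (H4C16 and H2BC12L). Annotated spans ran from 386 to 29682 bp with a median of 494 bp, and 62 genes had a span of at most 1000 bp. The protocol in the labels, written for RNA-seq libraries, depletes ribosomal RNA and does not select for poly(A). Exon maps were not used here, so the absence of introns was not checked.

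Replicates 1, 2 and 3 had 30111, 160931 and 65097 nuclear peaks. Replicate 3 stood apart, since 49284 of its peaks (75.7%) exceeded 1000 bp in width, while replicate 1 had 2 such peaks and replicate 2 had 0. Results are therefore also given for peaks of at most 1000 bp, called narrow below. The number of reads at each summit was recovered from the fold and −log10 p of the peak, and its highest value was 78, 80 and 78. Folds are the authors' own and depend on the scaling of each list, so they are not compared between replicates. Histone genes of a type resemble each other, and reads that map to several copies can be placed at any of them, so the value at a single copy is uncertain.

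Promoters show how the genes are arranged and what they share outside the rule. The RefSeq table (GRCh38.p14) held a start for 64 of the 70 genes. Below are the 120 bases before the start of the 8 genes with a span of at most 1000 bp, a known start and narrow summits in 2 lists, 5′ to 3′ on the strand of the gene. They are shown because their peaks are described below, and H2AC7 and H2BC7 also form a divergent pair. Capitals mark 3 motifs, each searched on both strands. ATTTGCAT is the octamer bound by OCT1 and known for H2B genes. TATAAA is the TATA box. CCAAT is the CCAAT box. In H3C7 the run of capitals nearest the start is a forward and a reverse TATAAA match that overlap.
H3C1, plus strand, chr6:26020331-26020450: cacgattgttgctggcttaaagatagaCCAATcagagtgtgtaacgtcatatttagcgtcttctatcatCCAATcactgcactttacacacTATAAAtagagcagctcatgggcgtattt
H2AC7, minus strand, chr6:26199294-26199413: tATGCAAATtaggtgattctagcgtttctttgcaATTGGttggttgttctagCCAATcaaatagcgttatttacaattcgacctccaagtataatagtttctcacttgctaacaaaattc
H2BC7, plus strand, chr6:26199396-26199515: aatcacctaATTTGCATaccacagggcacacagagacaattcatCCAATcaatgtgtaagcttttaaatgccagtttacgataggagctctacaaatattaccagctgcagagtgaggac
H1-3, minus strand, chr6:26234988-26235107: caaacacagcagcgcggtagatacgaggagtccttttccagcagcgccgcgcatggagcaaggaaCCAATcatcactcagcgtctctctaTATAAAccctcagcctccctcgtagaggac
H3C7, minus strand, chr6:26250636-26250755: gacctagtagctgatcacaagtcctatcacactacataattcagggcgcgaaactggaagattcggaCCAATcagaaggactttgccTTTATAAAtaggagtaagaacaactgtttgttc
H2BC13, minus strand, chr6:27807930-27808049: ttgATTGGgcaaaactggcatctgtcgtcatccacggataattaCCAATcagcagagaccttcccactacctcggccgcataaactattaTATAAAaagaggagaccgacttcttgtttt
H2AC15, minus strand, chr6:27838376-27838495: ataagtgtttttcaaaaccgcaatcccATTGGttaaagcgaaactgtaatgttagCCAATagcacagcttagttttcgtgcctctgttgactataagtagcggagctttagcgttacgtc
H2AC16, plus strand, chr6:27865197-27865316: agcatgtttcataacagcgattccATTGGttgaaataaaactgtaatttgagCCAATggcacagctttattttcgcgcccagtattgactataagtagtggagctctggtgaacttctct

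Over the 250 bases before the start, the octamer was found in 14 of 18 H2B promoters (77.8%) and 11 of 16 H2A promoters (68.8%), against 1.5% of 15778 other protein-coding promoters. It was on the strand of the gene in 13 of the H2B promoters and in 1 of the H2A promoters. The H1 and H4 promoters held none (0 of 6 and 0 of 13) and the H3 promoters held it in 1 of 11. TATAAA was found in 65.6% of the 64 promoters against 9.01% of the others, and CCAAT in 84.4% against 34.3%. CCAAT stood in all promoters of H1, H2A, H2B and H3 with an entry but in 3 of 13 H4 promoters. These are matches of letters and not shown binding sites. Divergent pairs of members with starts under 1000 bp apart numbered 12, with gaps of 193 to 978 bp. In each such pair of an H2A and an H2B gene the gap was shorter than the 250 bases searched. A site there can thus count for both genes, as does the octamer shown for H2AC7 and H2BC7. The octamer shares of H2A and H2B are therefore not separate counts. In 4 of the 12 divergent pairs both members held a narrow summit in some list, in 6 only 1 did, and in 2 neither. Of all histone genes 52.9% held one in some list, against 79.2% of other protein-coding genes. Whether partners go together was not tested.

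Histone genes had peaks less often than protein-coding genes at large. A peak overlapped 8, 32 and 14 of the 70 genes in replicates 1, 2 and 3, which is 11.4%, 45.7% and 20.0% (95% Wilson intervals 5.91 to 21.0%, 34.6 to 57.3% and 12.3 to 30.8%, for counting error only). Of 19963 other protein-coding genes, 45.5%, 76.9% and 82.4% had a peak. In all, 38 histone genes (54.3%) had a peak in at least 1 list and 15 (21.4%) in at least 2, against 92.7% and 72.7% of other protein-coding genes. The mean over replicates was 25.7% ± 17.8 in histone genes and 68.3% ± 19.9 in other protein-coding genes (SD, n = 3), and the histone share was the lower in each replicate. No test was made of this difference.

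Gene length differed greatly between the groups, and the order depended on it and on the width of the peaks counted. The histone genes had a median span of 494 bp and the other protein-coding genes of 24260 bp. Narrow peaks overlapped 11.4%, 45.7% and 15.7% of the histone genes, against 45.5%, 76.9% and 30.4% of all other protein-coding genes. Among the 62 histone genes with a span of at most 1000 bp, narrow peaks overlapped 9.68%, 40.3% and 14.5%. Among the 466 other protein-coding genes of that length they overlapped 2.58%, 7.94% and 1.93%. For narrow peaks the histone share was thus the higher in each replicate at this length. With peaks of any width the shares were 9.68%, 40.3% and 16.1% in short histone genes. In other short genes they were 2.58%, 7.94% and 62.4%, so the order turned in replicate 3. The short histone genes had a median span of 487 bp and the other short genes of 837 bp, and the groups were not matched on RNA level.

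The order also changed with the reads asked for. A narrow summit of at least 10 reads lay in 8.57%, 40.0% and 14.3% of the 70 histone genes, against 14.2%, 15.9% and 13.0% of the other protein-coding genes. The Wilson interval of the histone share held the other share in replicate 1 (3.99 to 17.5%) and in replicate 3 (7.95 to 24.3%), and lay above it in replicate 2 (29.3 to 51.7%). All Wilson intervals given here take each gene as a separate draw. Histone genes can share peaks, and reads can be placed at any of several copies. The intervals are therefore too narrow to serve as a test, and none was made. Ribosomal protein genes were taken by symbol, mainly RPL, RPS or RPLP followed by a digit, which gave 103 genes with a median span of 5628 bp. This rule also admits genes of other products, such as kinase genes whose symbols start the same way, and RNA level was not measured. The set was at 22.3%, 69.9% and 24.3%, above the histone genes in each replicate.

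**Figure D1:**
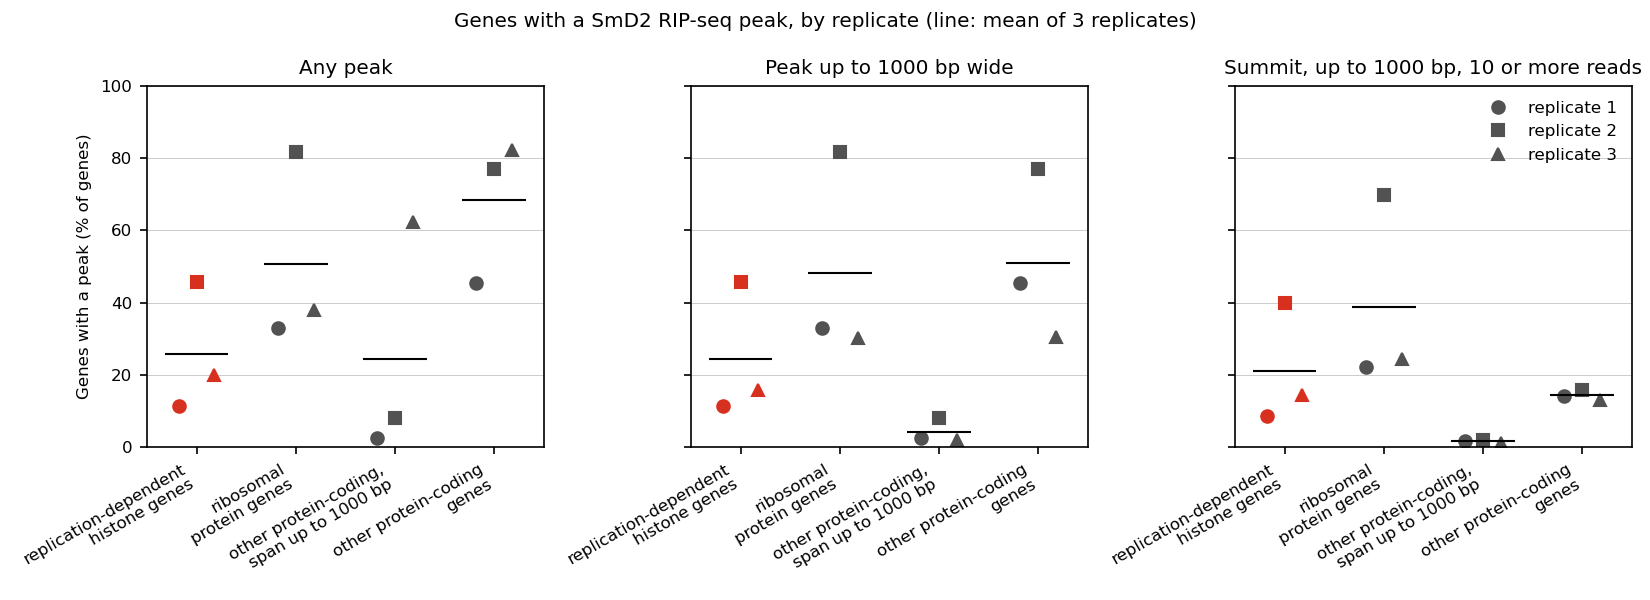
Percent of genes with a peak in each replicate (points) and the mean of 3 replicates (lines), for replication-dependent histone genes (red) and 3 other gene sets (grey), under 3 rules for counting a peak. Histone genes lie below the other protein-coding genes for any peak (25.7% against 68.3% on average) and between 8.57% and 40.0% for summits of at least 10 reads, where the other protein-coding genes lie between 13.0% and 15.9%.

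The wide peaks of replicate 3 mostly missed the histone genes. They overlapped 4 of 70 (5.71%, Wilson interval 2.24 to 13.8%), against 69.1% of the other protein-coding genes and 60.5% of the other short ones. Ribosomal protein genes were at 15.5%. The 4 genes were H2AC1, H2BC4, H2BC5 and H2BC18, and each of their wide peaks rested on 1 read. Peaks of 1 read are common in the lists, at 71.4% of all peaks of replicate 2 and 55.0% of replicate 3. The shares of other protein-coding genes include such peaks too. H2AC1 was met by the edge of a peak 104028 bp wide with its summit outside the gene.

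At the summits that did lie in histone genes, reads were many and the caller's background was high. In replicate 1 the 10 narrow summits had a median of 39.5 reads over a background of 15.8 reads, against 5.0 reads over 0.195 in other protein-coding genes. In replicate 2 the 43 summits had 40.0 reads over 23.5, against 1.0 over 0.0722. In replicate 3 the 14 summits had 47.5 reads over 12.2, against 7.0 over 0.307. The median histone summit was thus deeper than the median summit of the others in each list. Their median folds were 2.08, 1.73 and 2.86, against 2.74, 1.94 and 2.58 in other protein-coding genes. The gap was smaller among genes with a span of at most 1000 bp in replicates 1 and 3. In replicate 1, short histone genes had a median of 42.0 reads over 19.2 in 8 summits, against 20.0 over 6.67 in 10 summits of other short genes. In replicate 2 they had 49.5 reads over 28.4, against 1.0 over 0.0722. In replicate 3 they had 49.0 reads over 12.8 in 13 summits, against 20.5 over 2.35 in 8. Median folds at this length were lower in histone genes in each list, at 1.95, 1.55 and 2.99, against 2.83, 1.94 and 3.04. No label says which library or window gave the background. The highest summit in a histone gene had 55, 75 and 62 reads, so 0 of them came within 2 reads of the highest value in the list. A −log10 q of at least 1.3 was reached by 2 of 10, 3 of 43 and 2 of 14 narrow summits in histone genes, against 4.58%, 4.35% and 4.5% of those in other protein-coding genes. In replicate 3 both histone summits were those of H2BC12L.

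**Figure D2:**
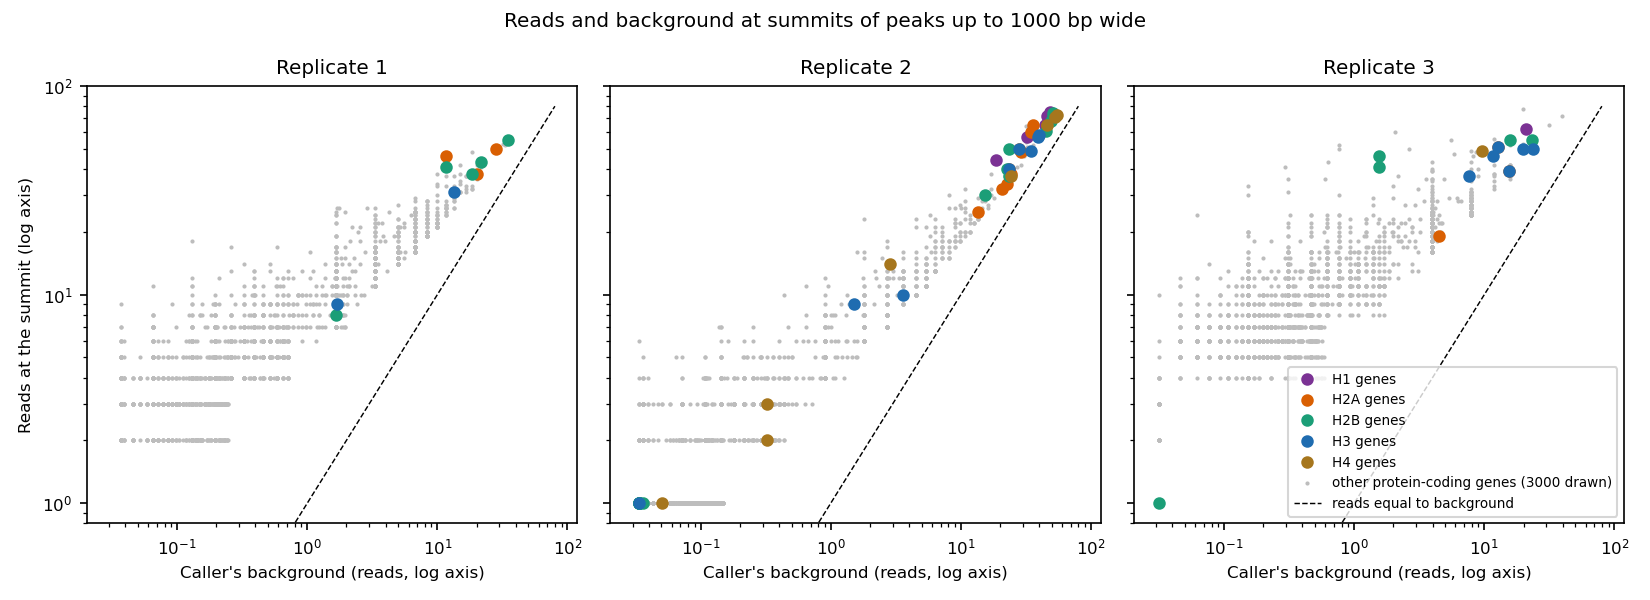
Reads at the summit against the caller's background in reads, on log axes, for narrow peaks in replicates 1, 2 and 3. Coloured points are summits in histone genes by type, grey points are 3000 summits drawn from other protein-coding genes, and the dashed line marks reads equal to background. Most histone summits stand at the upper right, with medians of 39.5, 40.0 and 47.5 reads, and the green pair at a background of 1.54 reads in replicate 3 is H2BC12L.

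By type, the order of the shares changed with the list and the rule, with few genes in each type. Any peak overlapped 4, 10 and 5 of 19 H2B genes and 2, 6 and 4 of 13 H3 genes in replicates 1, 2 and 3. It overlapped 2, 8 and 3 of 17 H2A genes and 0, 3 and 1 of 6 H1 genes. H4 genes had 0, 5 and 1 of 15, and the 0 of replicate 1 allows a share of up to 20.0%. Over replicates the means were 33.3% ± 16.9 for H2B, 30.8% ± 15.4 for H3, 25.5% ± 18.9 for H2A, 22.2% ± 25.5 for H1 and 13.3% ± 17.6 for H4 (SD, n = 3). Neighbours in this order differ by less than their SD. With narrow summits of at least 10 reads the means were 25.6% for H3, 23.5% for H2A, 22.2% for H1, 21.1% for H2B and 13.3% for H4. Some peaks count for 2 types. All peaks of H3C4, in replicates 2 and 3, lie in H2AC7, and the 65-read summit of H4C15 in replicate 2 lies in H2AC19. The H3 shares are raised by these under both rules. The H4 share is raised only with at least 10 reads, as H4C15 had further peaks of 1, 2 and 3 reads in replicate 2. The order of types without the shared peaks was not computed. In replicate 2, the shares of H1 (3 of 6) and H2A (8 of 17) were above that of H3 (6 of 13), and in replicate 1 H1 was at 0 like H4. All peaks of H2BC1, H2BC5 and H2BC18 rested on 1 read each. In replicate 2, 20.9% of narrow summits in histone genes rested on 1 read, against 65.1% in other protein-coding genes. In replicate 3 these shares were 7.14% and 4.69%. In all, 32 genes had no peak in any list, among them 9 H4 genes, 8 H2B genes, 7 H2A genes, 5 H3 genes, and H1-1, H1-5 and H1-6.

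By position, the 55 genes of chromosome 6 had peaks in 6, 26 and 11 genes, and the first group of chromosome 1 in 0, 5 and 1 of 11. With chromosome 6 split at gaps over 500000 bp, which was chosen after the data were seen, its 34 genes of lowest coordinate had 3, 15 and 9, the next 5 had 1, 2 and 0, and the last 16 had 2, 9 and 2. Of the second group on chromosome 1, H2BC26 had a peak in replicate 1 and H2AC25 had none.

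**Figure D3:**
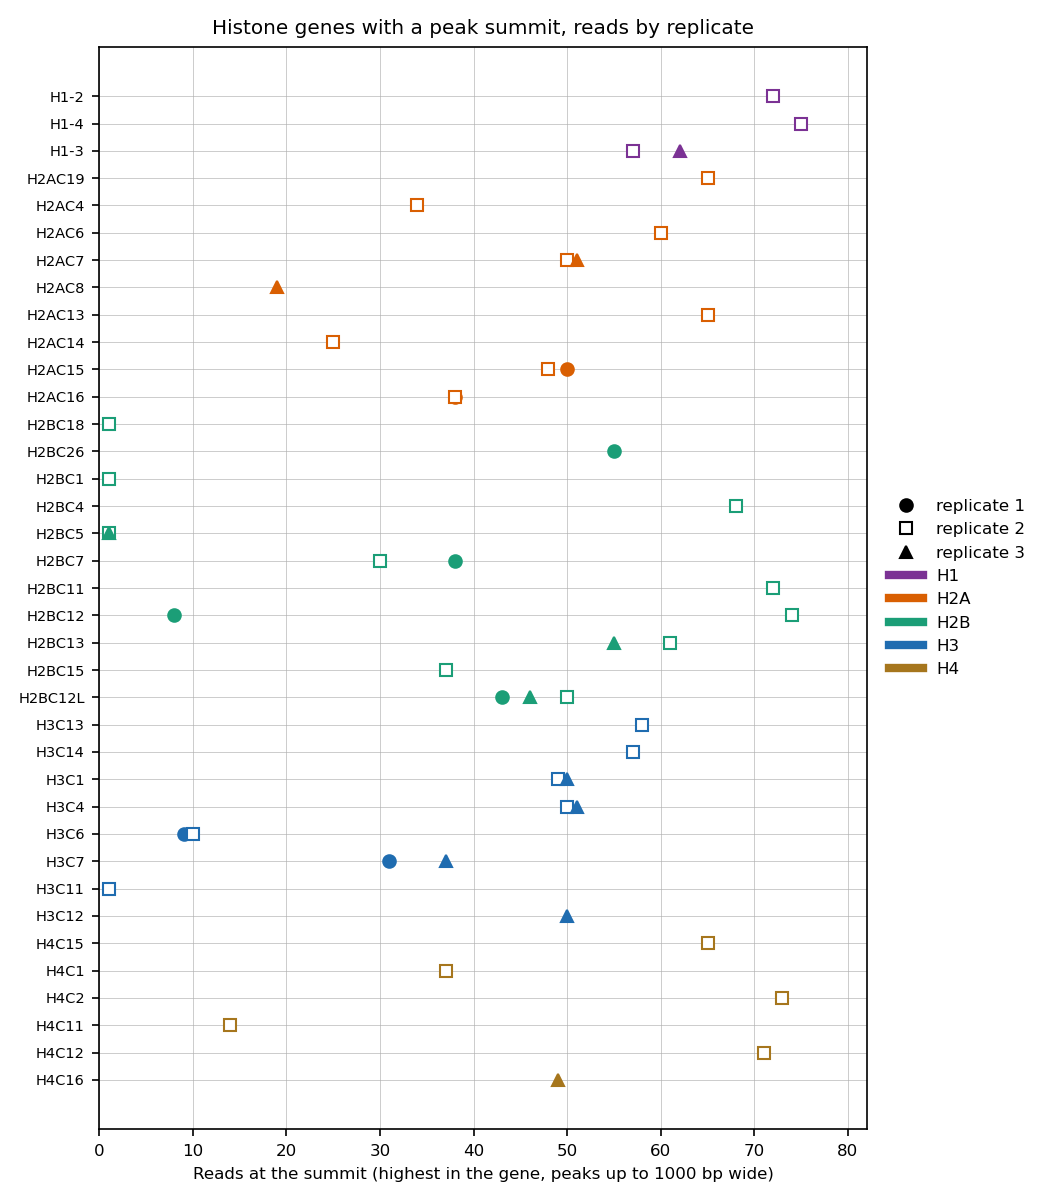
Highest number of reads at a narrow summit in each histone gene that held one, by replicate (symbols) and type (colours). H2BC12L is the gene with a symbol for all 3 replicates, at 43, 50 and 46 reads, and H1-4 reaches 75 reads in replicate 2.

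H2BC12L, an H2B gene on chromosome 21 from 43565182 to 43565648, was the 1 member with a peak in every list, where 39.3% of other protein-coding genes had one. It lies outside the histone clusters, in the span of HSF2BP, and its symbol names it as like H2BC12. It held 2 narrow summits in each list. At the low-coordinate site the summits lay at 43565397, 43565398 and 43565382 in replicates 1, 2 and 3, with 43, 50 and 46 reads over backgrounds of 21.7, 23.5 and 1.54 reads. At the other site they lay at 43565574, 43565569 and 43565572, with 41, 40 and 41 reads over 11.7, 22.6 and 1.54. Reads were thus alike between the lists, while the background of replicate 3 was far below that of the others. The −log10 p of the low-coordinate site was 3.02, 6.23 and 13.7, and that of the other site 6.97, 3.51 and 12.3. The −log10 q was 0.0, 1.79 and 7.81 at the low-coordinate site and 1.88, 0.0 and 6.52 at the other. Neither site reached a −log10 q of at least 1.3 in every list, though in each list some site of H2BC12L did. Whether its reads come from this copy, from H2BC12 or from HSF2BP was not tested.

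A narrow summit lay in 2 or more lists in 13 of the 70 genes (18.6%), against 49.4% of other protein-coding genes. By list it lay in 8, 32 and 11 histone genes, where 45.4%, 76.9% and 30.3% of other protein-coding genes held one. Where 2 lists had narrow summits in the same histone gene, they were compared, which gave 15 pairs of lists in 13 genes. The peaks overlapped in 12 pairs and the nearest summits lay within 50 bp in 9. These pairs are not all separate. The pair of H3C4 rests on the same peaks as that of H2AC7, and H2BC12L gave a pair for every combination of lists. Most of these genes are short, which leaves little room for summits to lie far apart. Such pairs in other genes were not counted, so no background stands beside these values.

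Among linker histones, which bind DNA between nucleosomes, H1-3 had its nearest summits 2 bp apart, at 26234854 in replicate 2 with 57 reads over 32.5 and at 26234852 in replicate 3 with 62 over 20.8. Near its 3′ end, replicate 2 had a second summit with 44 reads over 18.5 and a −log10 q of 2.30. H1-4 had up to 75 reads at a fold of 1.53 and H1-2 had 72 reads at a fold of 1.55, both in replicate 2, and neither had a peak in the other lists. No H1 gene had a peak in replicate 1.

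Among H2A genes, whose products pair with H2B in the nucleosome core, H2AC15 held summits at 27838101 in replicate 1 (50 reads over 28.4) and 27838100 in replicate 2 (48 over 28.9). A second site in replicate 1, at 27837945, had 46 reads over 11.7 and a −log10 q of 3.23, the highest of that list in a histone gene. H2AC16 had 38 reads in each of replicates 1 and 2, over 20.0 and 24.4, at summits 7 bp apart. The H2AC16 peaks did not overlap. The second H2AC15 site had no summit of its own in replicate 2, but the peak of that list, from 27837930 to 27838326, covers it. Replicate 3 had no peak in either gene.

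In the divergent pair shown above, H2AC7 had 40 and 50 reads at its summits in replicate 2 and 51 and 39 in replicate 3. Its partner H2BC7 had 38 reads over 18.4 in replicate 1 and 30 over 15.3 in replicate 2. The pair thus had peaks in each list, H2BC7 in replicates 1 and 2 and H2AC7 in replicates 2 and 3. No narrow summit lay in the 250 bases before any of the 64 annotated starts in any list, and such windows of other genes were not counted. A narrow peak reached into that window at 1 gene, H2BC15, in replicate 2.

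Among the remaining H2B genes, H2BC13 had a summit of 61 reads over 45.1 in replicate 2 and 2 summits of 55 reads each in replicate 3, over 15.8 and 23.1. H2BC26 had the most reads of a histone gene in replicate 1, 55 over 35.0, at a fold of 1.54. Its −log10 p was 2.03, near the lowest of that list (2.0), and its −log10 q was 0.0. H2BC12 had 74 reads over 51.5 in replicate 2, 143 bp from its nearest annotated start, whereas its summit of 8 reads in replicate 1 lay 8271 bp from the nearest start.

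Among H3 genes, whose products carry many of the regulated histone marks, H3C7 had 31 reads over 13.3 in replicate 1 and 37 over 7.69 in replicate 3, at summits 77 bp apart. H3C1 had 49 reads over 34.3 in replicate 2 and 50 over 23.7 in replicate 3, at a −log10 p of 2.15 and 2.05. H3C6 had 9 reads in replicate 1 and 9 and 10 at its summits in replicate 2, over backgrounds of 1.52 to 3.61. H3C13 had the most reads of an H3 gene in replicate 2, with 58 over 39.7. The peaks counted for H3C4 all lie in H2AC7, which its annotated span contains.

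Among H4 genes, none of which had a peak in 2 lists, H4C2 had 73 reads over 55.1 in replicate 2, at the lowest fold of a histone gene in that list, 1.32. Its −log10 p was 2.06. H4C11 had 14 reads over 2.85 and a fold of 3.89 in the same list. H4C16, on chromosome 12, had 49 reads over 9.53 in replicate 3.

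The 8 genes with spans over 1000 bp add signal from outside a histone unit. They held 21 narrow summits, of which 8 rested on 1 read and 13 on fewer than 10. In replicate 2, 43.8% of their narrow summits rested on 1 read, against 65.1% in other protein-coding genes. Of the 8 summits with at least 10 reads, 5 lay in another histone gene inside the span (H2AC7 or H2AC19), and the remaining ones lay within 1000 bp of an annotated start (H2BC4, H3C6 and H2BC12). H2BC18, the longest at 29682 bp, had 4 narrow summits in replicate 2, each of 1 read, and H2BC5 had 1 read at a narrow summit in replicates 2 and 3.

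Summits lay along the whole of the short genes. Of 41 summits in short genes with a known strand, 14 lay in the 5′ part, 14 in the middle and 13 in the 3′ part when the span was cut into 3 equal parts. In replicate 3, 6 of 9 lay in the 5′ part, against 0 of 6 in replicate 1 and 8 of 26 in replicate 2. Few summits lay in the flanks, but the flanks of other genes were not counted, so no background stands beside these values. Windows of 500 bp before the gene and free of other genes held 0 narrow summits in each list (0 of 29 windows, which allows a share of up to 10.3%). Windows of 500 bp after the gene held 0, 2 and 0 in 45 windows, where 0 allows up to 6.67%. The 2 lay after H2BC10 in replicate 2 and had 2 reads each. The spans themselves, where free of other genes, held 6, 22 and 7 summits in 50 genes, or 0.238, 0.874 and 0.278 per kb.

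**Figure D4:**
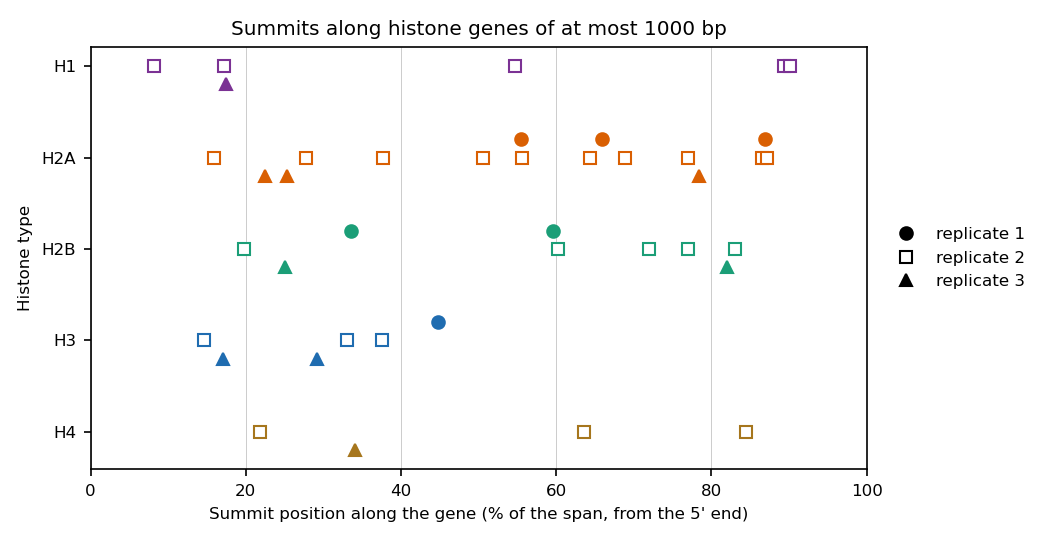
Position of narrow summits along histone genes with a span of at most 1000 bp and a known strand, in percent of the span from the 5′ end, by type (rows, colours) and replicate (symbols). The 41 points spread over the whole span, 14, 14 and 13 of them in its 5′, middle and 3′ parts.

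Narrow summits lay in 8, 32 and 11 of the 70 replication-dependent genes, and in 5, 8 and 5 of 10 replication-independent histone genes. Of other protein-coding genes, 45.4%, 76.9% and 30.3% held one. The Wilson intervals of the 10 genes held these shares in each list (23.7 to 76.3%, 49.0 to 94.3% and 23.7 to 76.3%). Most of the 10 give spliced and polyadenylated mRNAs, but whether the kind of mRNA matters was not tested. The median span of the 10 was 5940 bp. MACROH2A1 and MACROH2A2, which encode variants with a large extra domain, had at least 1 in each list. They are 2 of the 10, where 23.9% of other protein-coding genes had one in every list. The strongest peaks had 14, 24 and 19 reads in MACROH2A1 and 8, 8 and 9 in MACROH2A2. H2AX, which yields both kinds of mRNA end, had 67 reads at a fold of 1.60 in replicate 2 and no narrow summit in the others. Of 5 further histone genes outside the symbol rule, H3-4 and H1-8 had no narrow summit in any list.

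Of 16 genes of histone mRNA processing and expression, 13, 12 and 13 had a narrow summit, where 45.4%, 76.9% and 30.3% of other protein-coding genes had one. In every list, 9 of the 16 had one, against 23.9% of other protein-coding genes. The 9 were CPSF2, CPSF3, SYMPK and CSTF2, of the cleavage complex, ZNF473 and CASP8AP2, of U7-dependent processing, ERI1, a nuclease that trims the stem-loop end, and SRRT and NCBP1, of cap binding. LSM10 had narrow summits in replicates 1 and 3 and LSM11 in replicates 2 and 3. SLBP, the stem-loop binding protein, had 11 reads in replicate 1 and 7 in replicate 3 at its strongest summit. RNU7-1, the U7 RNA gene, had none in any list. Of the 5 Sm proteins that U7 shares, SNRPB, SNRPF, SNRPG and SNRPD3 had a narrow summit in at least 1 list and SNRPE had none. That is 4 of 5, where 79.2% of other protein-coding genes had one, so it is near the background. These are long genes in the main (median 21951 bp for the 16), so their shares are not set against those of the histone genes.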

How the data were processed

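The submitters' processing notes name the build GRCh38 and the tools MACS2 2.2.9.1, STAR 2.7.10b and cutadapt 4.2. Caller options, the background library and the handling of duplicates, of strand and of reads with several matches are not given in the sources. The deposited columns used are the fold (ratio), the −log10 p-value and q-value and the position of each peak. The deposited score is the whole part of 10 times the −log10 p. Sequencing depth is not known from peak lists. Peak numbers in the lists start at 829, 5159 and 1884, so 828, 5158 and 1883 earlier peaks were not analysed here. Peaks on the mitochondrial genome were left out.

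Reads at a summit were the whole number k for which, with the height of 1 read in the scaled pileup (0.599, 1.0 and 0.254), the deposited fold gave a background that returned the −log10 p within 0.002. All but 0, 1 and 3 peaks were solved, and each peak in a histone gene had 1 solution. On simulated lists 99.9%, 100.0% and 100.0% of read numbers were recovered. Genes and promoters came from RefSeq (GRCh38.p14), as whole spans. Overlap needed 1 bp. Python 3.11.15, numpy 2.4.6, pandas 2.3.3 and scipy 1.17.1 were used.

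Genes named were members with a peak in every list or narrow summits in 2 or more, the member with the most reads by type and list, and genes of fixed lists with narrow summits in every list or none. Others were named after their values were seen. Members and lists were chosen with earlier results of these data known. Of the fixed lists, H2AW and H2BU1 are now H2AC25 and H2BC26 and count as members, and H4-16 matched no single gene.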

Additional observations from a re-analysis of the deposited data

How the results depend on the processing

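No paired analysis was possible because only the SNRPD2OE samples were analysed. The number of members with a peak in every list stayed 1 under each alternative that kept all replicates and genes, and ran from 2 to 9 when a replicate was left out (9 without replicate 1, 2 without replicate 2, 6 without replicate 3). Without H2BC12L, an alternative added after the data were seen, it was 0. The mean share of members with a peak moved beyond 1 SD at a −log10 q of at least 1.3, where it was 2.86%, and ran from 15.7% to 32.9% without a replicate. With lists of equal length it was 14.3%, against 25.7% with the lists as deposited. The difference from other protein-coding genes was -42.5 percentage points. It was -6.46 at that q and turned to 6.33 with at least 10 reads, and to 6.53 with at least 10 reads and peaks of at most 1000 bp (added). It ran from -48.2 to -32.6 without a replicate. The difference of all members, including those with spans over 1000 bp, from other short protein-coding genes was 1.39 points. It had an SD of 40.6 and no settled sign. It was -2.34 without replicate 1, -16.8 without replicate 2, 23.3 without replicate 3, and -2.28 for short members alone (added). With peaks of at most 1000 bp it was 20.1 for all members. The cause of these changes was not tested.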
